A study of Homo sapiens with 9 samples.

Results

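The 35 genes described here encode enzymes of fatty acid oxidation, the receptors that control them, and further targets of PPARA. The rule that picks them uses the symbol and no measured value, although the list was drawn up with earlier results of these data known, and all 35 were found among the 24204 symbols of the expression table. They were followed in HepG2, a human liver cancer cell line, in 3 groups of 3 RNA-seq libraries. Cells carried a lentiviral control short hairpin RNA (shCtrl) or a hairpin against TRIB3 (shTRIB3-1 or shTRIB3-2), and the question of the experiment was which transcripts depend on TRIB3, a pseudokinase of the stress response. In all 3 groups, infection for 48 h was followed by puromycin for 48 h, so the control cells had also been infected and selected. The labels give high-glucose medium with 10% serum. The study's methods name glutamine deprivation in an account shared by this RNA-seq series and a time course. The study's results describe the time course as deprived and name only the hairpins for the knockdown series. The discussion places the altered repair genes after TRIB3 depletion in cells that kept their glutamine. The labels and these passages point to medium with glutamine, but no source used here states outright whether it was present at harvest. The libraries are of selected pools of cells, and nothing in the labels says whether the 3 libraries of a group came from separate cultures. The p-values below then measure only the spread between these libraries, which may be technical.

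Fatty acids enter the mitochondrion as acylcarnitines and are shortened there in a repeated spiral of dehydrogenation, hydration, a second dehydrogenation and thiolytic cleavage. Electrons from the first step reach the respiratory chain through electron transfer flavoprotein, and the acetyl-CoA made in the liver is burned or turned into ketone bodies. Very long and branched chains, and the side chains of bile acid precursors, are shortened first in peroxisomes. PPARA, a nuclear receptor activated by fatty acids, binds DNA as a dimer with RXRA and switches on many of these genes in the fasting liver, where PPARGC1A acts as its coactivator.

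The sequences that carry the experiment are the hairpin targets, which define the treated groups, and the starts of 4 of the 35 genes whose levels differed in contrasting ways between the groups. The 21-base target of each hairpin is printed in the sense of the TRIB3 transcript, and no transcript of the 35 genes holds either target. The target of shTRIB3-1 lies in 4 of 4 annotated TRIB3 transcripts (GENCODE v44) and that of shTRIB3-2 in 3 of 4.
shTRIB3-1 target: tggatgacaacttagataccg
shTRIB3-2 target: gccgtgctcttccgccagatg

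Promoter sequences were available from RefSeq (GRCh38.p14) for 30 of the 35 genes, in 44 windows, since some genes have several start sites. The classical element bound by a PPAR and RXR pair is a direct repeat of AGGTCA with 1 base between the copies. On either strand of windows from 250 bases before to 50 after the start, this repeat was in 0 of 44 windows of these genes, in its exact form and with any base allowed at the 4th place of each copy. Over all 35116 windows of the same length it was in 8 (0.0228%) and 109 (0.310%). At rates this low, a count of 0 in 44 windows says little about these genes. Forms of the repeat that differ at other places were not searched. A motif of 4 runs of GGG or longer, separated by 1 to 7 bases and found on either strand within the 250 bases upstream, is of the kind that can fold into a G-quadruplex, the DNA structure at the centre of the study. It was in 15 of 44 windows (34.1%), belonging to 12 of 30 genes, and in 8236 of all 35116 windows (23.5%). The median GC content of the windows was 65.4% for these genes and 58.0% over all windows. A match of letters is a description of the sequence and shows neither a folded structure nor a bound factor.

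The 250 bases upstream of 4 starts are given 5′ to 3′ on the strand of the gene, with each G-run motif in capitals. PPARA (chr22:46150276-46150525, plus strand, GC 84.4%) held 2 such motifs and SLC25A20 (chr3:48898883-48899132, minus strand, GC 66.0%) held 1, as runs of C on the strand shown. SLC27A2 (chr15:50181946-50182195, plus strand, GC 64.4%) and FABP1 (chr2:88128063-88128312, minus strand, GC 48.0%) held 0. PPARA and SLC25A20 were higher with both hairpins, SLC27A2 was lower with both, and FABP1 was higher with shTRIB3-2 alone among the calls, as described below. Of the 12 genes that held the motif, 6 were called higher and 3 lower with both hairpins (HADH, ACAA2 and BDH1). Of the 18 that did not, 4 were higher, 8 lower and 3 not tested. Over all tested genes, 28.1% were higher and 34.3% lower with both hairpins. The 6 include ANGPTL4 and the 8 include PPARGC1A, each of which passed the filter for testing only because of the groups where it was high. ACADS is also among the 8, and its call with shTRIB3-2 was lost in 11 of 19 alternative fits. A link between the motif and the direction was not tested.
PPARA: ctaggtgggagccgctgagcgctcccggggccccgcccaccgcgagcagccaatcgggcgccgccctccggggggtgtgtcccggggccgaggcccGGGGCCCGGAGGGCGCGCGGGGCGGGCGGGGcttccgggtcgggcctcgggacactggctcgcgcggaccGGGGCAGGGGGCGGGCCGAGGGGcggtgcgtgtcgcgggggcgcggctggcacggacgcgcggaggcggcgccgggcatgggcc
SLC25A20: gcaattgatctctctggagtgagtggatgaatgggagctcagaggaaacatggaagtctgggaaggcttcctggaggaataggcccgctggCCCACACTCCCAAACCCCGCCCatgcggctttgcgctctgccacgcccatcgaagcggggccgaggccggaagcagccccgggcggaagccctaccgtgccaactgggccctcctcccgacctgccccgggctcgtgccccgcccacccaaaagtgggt
SLC27A2: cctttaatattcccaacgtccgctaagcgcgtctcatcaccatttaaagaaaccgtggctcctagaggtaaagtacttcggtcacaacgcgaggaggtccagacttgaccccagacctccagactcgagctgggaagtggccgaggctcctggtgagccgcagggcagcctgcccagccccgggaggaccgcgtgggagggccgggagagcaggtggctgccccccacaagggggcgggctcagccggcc
FABP1: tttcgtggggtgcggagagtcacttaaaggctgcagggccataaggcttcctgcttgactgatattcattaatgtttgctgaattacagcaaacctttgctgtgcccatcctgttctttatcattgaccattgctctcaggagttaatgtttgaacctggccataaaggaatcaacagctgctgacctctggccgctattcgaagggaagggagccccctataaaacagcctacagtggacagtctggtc

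The values are FPKM, that is fragments scaled for gene length and for the number of mapped fragments in the library. Sequencing depth ran from 34206726 to 36311029 fragments per library. TRIB3 (chr20:362835-397559, GRCh38), the targeted gene, averaged 66.8 ± 1.08 FPKM in the control, against 33.6 ± 0.760 with shTRIB3-1 and 20.5 ± 0.171 with shTRIB3-2 (mean ± SD over 3 libraries, here and below), so every knockdown library matched its label. All 11 hepatocyte markers were above the limit for testing, with albumin at 4929 to 6715 FPKM. The defining leukocyte markers PTPRC and CD3E were at 0 to 0.0419 FPKM, the summed endothelial markers at 0.105 to 0.201, and of 6 fibroblast markers ACTA2 alone reached the level for testing. The summed leukocyte list was at 1055 to 1176 FPKM in shCtrl, 531 to 559 with shTRIB3-1 and 611 to 650 with shTRIB3-2, most of it LYZ, while CD68, the other tested member, averaged 31.8, 37.6 and 33.5 FPKM and was called higher with shTRIB3-1 (log2 fold change 0.24, adjusted p = 0.00275). The fibroblast list was at 55.6 to 63.1, 39.3 to 41.7 and 54.5 to 57.8. Of 9 cell division markers, 9 were lower with each hairpin, and their summed level went from 576 to 580 FPKM among the controls to 150.3 to 151.1 with shTRIB3-1 and 87.3 to 89.1 with shTRIB3-2. The 13 protein-coding genes of the mitochondrial genome took 5.30 to 6.10% of fragments in shCtrl, 6.29 to 7.01% in shTRIB3-1 and 6.52 to 7.22% in shTRIB3-2. Their part in the results below was not tested, and in bulk RNA a change in the make-up of the cell population and a change within each cell cannot be told apart.

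A gene was tested when it reached 1 FPKM in at least 3 of the 9 libraries, which 32 of the 35 genes and 11265 of all symbols did. Differences are log2 fold changes of FPKM + 0.1 with their standard errors, fitted with limma over all tested genes, and a call needed an adjusted p under 0.05. In shCtrl the most abundant of the 35 transcripts was that of FABP1, the cytosolic fatty acid binding protein of the liver, at 589 ± 76.9 FPKM. ETFB, HADHA, ECHS1, ACADVL, HADHB and ECI2 followed, each above 100 FPKM on average. Per gene length, FABP1 and ETFB (205 ± 13.5) were apart by more than their spread, as were ETFB and HADHA (172 ± 1.86). The receptors were far less abundant, with RXRA at 10.8 ± 0.178, PPARA at 8.85 ± 0.0569 and PPARD at 4.97 ± 0.449 FPKM. The plot of levels by library shows that the 35 genes spanned from below 0.1 to above 500 FPKM.

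**Figure D1:**
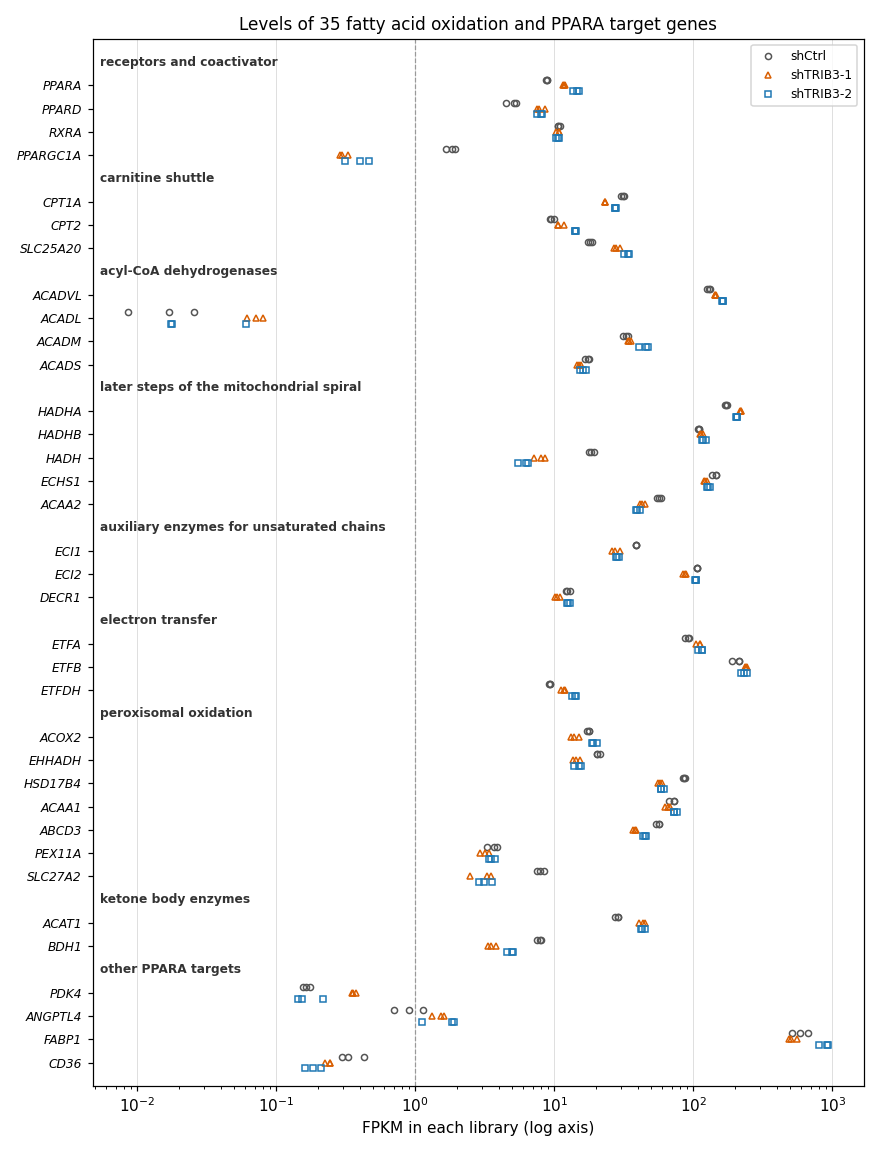
FPKM of the 35 genes in each of the 9 libraries on a log axis, grouped by role, with circles for shCtrl, triangles for shTRIB3-1 and squares for shTRIB3-2. The dashed line marks 1 FPKM, the level for testing, and ACADL, PDK4 and CD36 lie below it in all 9 libraries.

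With shTRIB3-1, 11 of the 32 tested genes were higher and 16 lower than in shCtrl. With shTRIB3-2, 15 were higher and 12 lower. Of all tested genes, 32.9% were called higher and 41.5% lower with shTRIB3-1, and 35.4% and 40.5% with shTRIB3-2, so a call in either direction was common everywhere and the share of these genes called, 84.4% with each hairpin, stood beside 74.4% and 75.9% of all tested genes. Of the 32 genes, 11 were higher and 12 lower with both hairpins, beside 28.1% and 34.3% of all tested genes. ANGPTL4 is among the 11 and PPARGC1A among the 12, and each passed the filter only because of the groups where it was high. ACADS is also among the 12, and its call with shTRIB3-2 was lost in 11 of 19 alternative fits. Both comparisons use the same shCtrl libraries. The median log2 fold change of the 32 genes was -0.18 with shTRIB3-1 and 0.04 with shTRIB3-2, and over all tested genes it was -0.06 and -0.03. The libraries of the 2 groups did not overlap for 13 of the 32 genes on the higher and 15 on the lower side with shTRIB3-1, beside 34.2% and 43% of all tested genes, and for 14 and 12 with shTRIB3-2, beside 36.1% and 41.3%. Past a 2-fold change, 0 genes were higher and 4 lower with shTRIB3-1, beside 5.39% and 6.1% of all tested genes, and 0 were higher and 3 lower with shTRIB3-2, beside 6.06% and 6.27%. The 4 genes were PPARGC1A, HADH, SLC27A2 and BDH1, and each belongs to a different role. PPARGC1A is in these counts although it reached 1 FPKM in the shCtrl libraries only, and without it the counts of lower genes past 2-fold were 3 and 2. The calls did not fall in 1 direction, and they are given by role below.

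**Figure D2:**
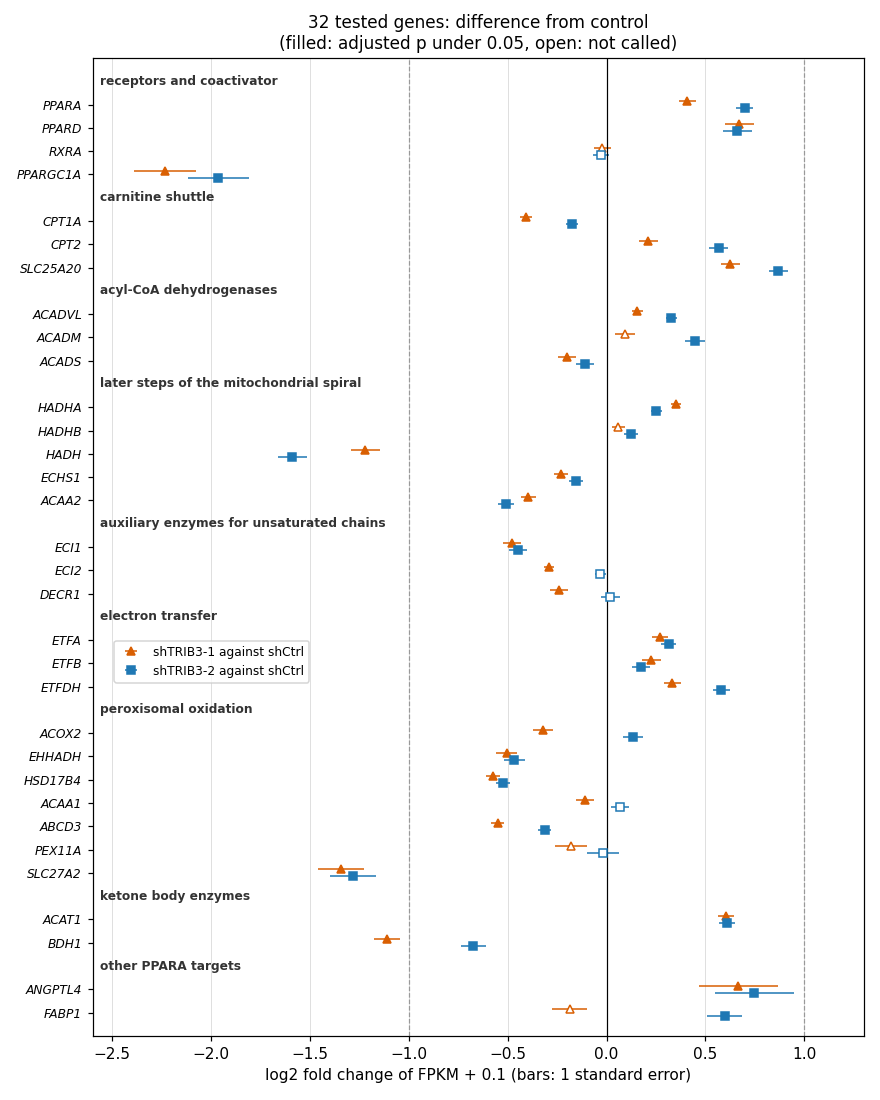
Log2 fold change of FPKM + 0.1 against shCtrl for the 32 tested genes by role, with triangles for shTRIB3-1, squares for shTRIB3-2, bars of 1 standard error, filled symbols for adjusted p under 0.05 and dashed lines at a 2-fold change. The 3 electron transfer genes lie to the right of 0 with both hairpins, HADH, SLC27A2 and PPARGC1A lie past the left dashed line with both, and ACOX2 lies on opposite sides of 0. PPARGC1A and ANGPTL4 passed the filter only because of the groups where they were high, so their filled symbols are a description only.

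Among the receptors, PPARA and PPARD rose with both hairpins, RXRA showed no call, and the coactivator PPARGC1A was at under 1 FPKM in every knockdown library. PPARA (chr22:46150521-46243755), the main fatty acid receptor of hepatocytes, measured 8.79, 8.84 and 8.90 FPKM in the 3 shCtrl libraries, 12.0, 11.7 and 11.6 with shTRIB3-1, and 14.6, 13.6 and 15.1 with shTRIB3-2. The 3 groups did not overlap, and shTRIB3-2 was highest. The log2 fold change was 0.41 ± 0.0442 for shTRIB3-1 (adjusted p = 3.66e-06), and it was 0.70 ± 0.0442 for shTRIB3-2 (adjusted p = 2.37e-08), and the hairpins differed by 0.29 ± 0.0442 (adjusted p = 0.000238). PPARD, a related receptor found in most tissues, went from 4.97 ± 0.449 FPKM to 7.96 ± 0.574 and 7.90 ± 0.329, a log2 fold change of 0.67 and 0.66 (SE 0.0726). RXRA, the shared partner of these receptors, was at 10.8 ± 0.178, 10.6 ± 0.342 and 10.6 ± 0.305 FPKM, with log2 fold changes of -0.02 and -0.03 (SE 0.0421).

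PPARGC1A (chr4:23755041-23904089), the coactivator that links PPARA and other receptors to mitochondrial gene expression, was at 1.83, 1.66 and 1.93 FPKM in shCtrl. It was at 0.329, 0.299 and 0.287 FPKM with shTRIB3-1 and at 0.400, 0.312 and 0.463 with shTRIB3-2. All 6 knockdown libraries were below all 3 control libraries, and the hairpins overlapped. The shTRIB3-1 mean was 16.9% of the control mean and the shTRIB3-2 mean 21.7%. The log2 fold changes were -2.23 ± 0.155 and -1.96 ± 0.155. PPARGC1A reached the level for testing through the shCtrl libraries alone, so it had to be lower in the others, and its calls are given as a description with no p. The log2 values understate the linear change because the levels are near the constant of 0.1 added before taking logs. The difference between the hairpins, 0.27 ± 0.155, was not called (adjusted p = 0.179), but it was after quantile normalization (0.88, adjusted p = 0.00320). PPARA was higher in the same knockdown libraries, but the filter fixed the direction of PPARGC1A, so no contrast between the 2 is drawn.

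The carnitine shuttle was divided, with its entry step lower and its later steps higher. CPT1A, which makes long-chain acylcarnitines and is the controlled step of the pathway, fell from 30.9 ± 0.823 FPKM to 23.3 ± 0.0439 with shTRIB3-1 and 27.4 ± 0.238 with shTRIB3-2. SLC25A20, the translocase that carries acylcarnitines across the inner membrane, measured 18.8, 18.0 and 17.5 FPKM in shCtrl, 27.8, 26.7 and 29.5 with shTRIB3-1, and 33.8, 31.5 and 34.2 with shTRIB3-2. It had the largest increase of the 32 genes with shTRIB3-2, a log2 fold change of 0.87 ± 0.0469 (adjusted p = 5.53e-09), after 0.63 ± 0.0469 with shTRIB3-1 (adjusted p = 1.28e-07). The groups did not overlap. CPT2, which returns the acyl group to CoA in the matrix, rose from 9.53 ± 0.327 to 11.1 ± 0.652 and 14.2 ± 0.216 FPKM. Exons of genes on the opposite strand cover 12.4% of CPT2's annotated exon bases, and whether the counting told the strands apart is not known. The study's methods call its libraries strand-specific, the labels of these libraries name another kit, and no source used here gives the strand setting of the counting. Each of the 3 shuttle genes was higher with shTRIB3-2 than with shTRIB3-1, by 0.24 to 0.36 on the log2 scale. Of all tested genes, 25.1% were called higher and 20.7% lower in this comparison, and of the 32 genes 14 were higher.

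The acyl-CoA dehydrogenases catalyse the first step of the spiral, each for a range of chain lengths. ACADVL, for very long chains, rose from 129 ± 3.42 FPKM to 144 ± 1.67 and 162 ± 0.644. ACADM, for medium chains, was at 32.7 ± 1.41, 34.9 ± 0.918 and 44.7 ± 3.29 FPKM. Its increase was called with shTRIB3-2 (0.45 ± 0.0513, adjusted p = 5.84e-06) and not with shTRIB3-1 (0.09 ± 0.0513, adjusted p = 0.122, or 0.0464 without shTRIB3-2 replicate 2), and the direct difference between the hairpins was 0.35 ± 0.0513 (adjusted p = 0.000164). ACADS, for short chains, moved the other way, from 17.3 ± 0.579 to 15.1 ± 0.493 and 16.1 ± 0.807 FPKM. Its decrease with shTRIB3-2 (-0.11 ± 0.0457) was at the edge of the threshold (adjusted p = 0.0461) and was lost in 11 of 19 alternatives. Among these were the fits without shCtrl replicate 2 or 3 (0.145 and 0.111), shTRIB3-1 replicate 1 (0.0566) or shTRIB3-2 replicate 2 or 3 (0.0849 and 0.186). Setting library medians equal (0.302) and voom on the recovered fragments (0.0877) also lost it. ACADL, a long-chain enzyme, was barely measured, with 1, 2 and 3 fragments in the shCtrl libraries, 9, 8 and 7 with shTRIB3-1, and 2, 2 and 7 with shTRIB3-2, at most 0.0804 FPKM.

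The later steps of the spiral held both an increase and 1 of the strongest decreases. HADH (chr4:107989714-108035241), which oxidises short- and medium-chain hydroxyacyl-CoA, was at 18.4, 19.4 and 17.7 FPKM in shCtrl, 8.004, 7.13 and 8.51 with shTRIB3-1, and 6.44, 5.50 and 6.30 with shTRIB3-2. The knockdown libraries lay below the controls and the hairpins were apart, with shTRIB3-2 lower. The log2 fold change was -1.22 ± 0.0731 (adjusted p = 1.72e-08) and -1.59 ± 0.0731 (adjusted p = 1.32e-09), and the difference between the hairpins was -0.37 ± 0.0731 (adjusted p = 0.00151). ACAA2, the thiolase that closes the spiral, fell from 56.6 ± 1.78 FPKM to 43.0 ± 1.77 and 39.7 ± 1.18. ECHS1, the short-chain hydratase, fell from 143 ± 6.25 to 122 ± 2.20 and 129 ± 2.17. These 3 matrix enzymes were called lower with both hairpins, beside 34.3% of all tested genes.

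HADHA and HADHB encode the α and β subunits of the mitochondrial trifunctional protein, which carries out the last 3 steps for long chains. They lie head to head on chromosome 2, and their RefSeq starts, at 26244632 on the minus strand and 26244939 on the plus strand, are 307 bases apart. HADHA rose from 172 ± 1.86 FPKM to 219 ± 2.01 with shTRIB3-1 and 205 ± 2.86 with shTRIB3-2. HADHB was at 109 ± 1.72, 114 ± 3.05 and 119 ± 4.50 FPKM, with log2 fold changes of 0.06 ± 0.0339 (adjusted p = 0.131) and 0.12 ± 0.0339 (adjusted p = 0.00544). The increase with shTRIB3-1 became a call when library medians were set equal (0.0159), and the one with shTRIB3-2 was lost under quantile normalization (0.0925). The ratio of HADHA to HADHB FPKM was 1.54 to 1.59 in the shCtrl libraries, 1.88 to 1.95 with shTRIB3-1 and 1.67 to 1.76 with shTRIB3-2, so the ranges did not overlap. With 3 libraries a group an exact permutation test could not go below 0.10, and the ratio was not tested. Annotated pseudogenes exist for both genes (2 for HADHA and 1 for HADHB), so their reads may be shared with copies. The same limit holds for SLC25A20 and ACAA2, with 1 annotated pseudogene each.

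The auxiliary enzymes handle double bonds that the spiral cannot. ECI1, the mitochondrial isomerase, fell from 38.7 ± 0.211 FPKM to 27.8 ± 1.80 and 28.4 ± 0.926. DECR1, the mitochondrial reductase for polyunsaturated chains, was at 12.5 ± 0.496, 10.6 ± 0.469 and 12.7 ± 0.278 FPKM, a decrease with shTRIB3-1 alone among the calls. ECI2, an isomerase of peroxisomes and mitochondria, gave 106 ± 0.593, 86.7 ± 1.88 and 104 ± 1.03 FPKM, also with a called decrease for shTRIB3-1, and for shTRIB3-2 only after quantile normalization (-0.10, adjusted p = 0.00404). For DECR1 and ECI2 the direct comparison of the hairpins was called, at 0.26 on the log2 scale for each (SE 0.0459 and 0.0271). Antisense genes cover 29.8% of the annotated exon bases of ECI2, whose values carry the same doubt about strand.

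The 3 electron transfer genes each rose with both hairpins, beside 28.1% of all tested genes called higher with both. ETFA and ETFB, the subunits of electron transfer flavoprotein, went from 90.7 ± 2.68 to 109 ± 4.67 and 113 ± 3.69 FPKM, and from 205 ± 13.5 to 240 ± 5.61 and 232 ± 9.94 FPKM. ETFDH, the oxidoreductase that hands their electrons to ubiquinone, measured 9.34, 9.10 and 9.35 FPKM in shCtrl, 11.8, 12.0 and 11.3 with shTRIB3-1, and 14.0, 13.3 and 14.3 with shTRIB3-2. The ETFDH groups did not overlap, and its log2 fold changes were 0.33 ± 0.0432 (adjusted p = 1.92e-05) and 0.58 ± 0.0432 (adjusted p = 1.08e-07). The summed FPKM of the 3 genes was 287 to 315 in shCtrl, 349.5 to 369 with shTRIB3-1 and 345 to 369.9 with shTRIB3-2. All 6 knockdown libraries were above the 3 controls. These increases were small, from 0.17 to 0.58 on the log2 scale.

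Of 7 peroxisomal genes, 0 were called higher and 6 lower with shTRIB3-1, where 32.9% and 41.5% of all tested genes were. With shTRIB3-2, 1 was higher and 4 lower, beside 35.4% and 40.5% of all tested genes. Of the 6, ACAA1 was lost in 8 of 19 alternatives. Their summed FPKM was 254 to 267 in shCtrl, 192 to 202 with shTRIB3-1 and 216 to 224 with shTRIB3-2, and the 3 ranges did not overlap. HSD17B4 and EHHADH, the multifunctional enzymes that carry out the middle steps in peroxisomes, fell from 86.0 ± 1.56 to 57.7 ± 2.20 and 59.7 ± 1.53 FPKM, and from 20.5 ± 0.544 to 14.4 ± 0.878 and 14.8 ± 0.806 FPKM. ABCD3, the membrane transporter that imports long and branched acyl-CoA, fell from 55.5 ± 1.66 to 37.8 ± 0.778 and 44.6 ± 1.18 FPKM.

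SLC27A2 (chr15:50182196-50236385), a transporter and very long-chain acyl-CoA synthetase of peroxisomes and the endoplasmic reticulum, had the strongest decrease in this role. It was at 8.38, 7.46 and 7.84 FPKM in shCtrl, 3.28, 2.47 and 3.48 with shTRIB3-1, and 3.57, 3.15 and 2.88 with shTRIB3-2. Both knockdown groups lay below the controls and overlapped each other. The log2 fold change was -1.34 ± 0.116 (adjusted p = 4.63e-07) and -1.28 ± 0.116 (adjusted p = 6.43e-07), with a difference between the hairpins of 0.06 ± 0.116. Exons of ATP8B4 on the opposite strand cover 19.9% of its annotated exon bases, with the same doubt about strand. ACAA1, the peroxisomal thiolase, was at 70.5 ± 3.43, 65.3 ± 2.85 and 73.9 ± 2.63 FPKM. Its decrease with shTRIB3-1 (-0.11 ± 0.0439, adjusted p = 0.0388) was lost without shCtrl replicate 2 or 3 (0.124 and 0.130) or shTRIB3-1 replicate 1 or 2 (0.156 and 0.0655), and DLEC1 overlaps 19.7% of its exon bases on the other strand. PEX11A, which promotes peroxisome division, was at 3.61 ± 0.313, 3.18 ± 0.236 and 3.56 ± 0.166 FPKM and showed no call against shCtrl. For shTRIB3-1 its adjusted p was 0.0632, and it was 0.0189 without shCtrl replicate 1 and 0.0379 without shTRIB3-1 replicate 2.

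ACOX2, the oxidase for branched chains and bile acid intermediates, was the 1 gene of the 32 called in opposite directions by the 2 hairpins in the main fit. In 4 of 19 alternatives FABP1, described below, was also called in opposite directions. It measured 17.9, 17.6 and 17.2 FPKM in shCtrl, 14.99, 13.3 and 13.9 with shTRIB3-1, and 20.4, 18.5 and 18.9 with shTRIB3-2. The shTRIB3-1 libraries were all below and the shTRIB3-2 libraries all above the controls. The decrease for shTRIB3-1 was -0.32 ± 0.0499 (adjusted p = 8.91e-05), and the increase for shTRIB3-2 was 0.13 ± 0.0499 (adjusted p = 0.0292). The increase was not called without shCtrl replicate 2 or 3 (adjusted p = 0.0564 and 0.0861) or without shTRIB3-2 replicate 1 (0.131), nor after rescaling to TPM (0.0860) or with all genes above 0 fitted (0.0640).

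Ketone body enzymes moved apart. ACAT1, the mitochondrial thiolase that joins acetyl-CoA units, rose from 28.3 ± 1.03 FPKM to 43.1 ± 2.04 and 43.2 ± 1.24, a log2 fold change of 0.60 and 0.61 (SE 0.0417). BDH1 (chr3:197509783-197573323), which interconverts acetoacetate and 3-hydroxybutyrate, was at 7.53, 7.99 and 7.83 FPKM in shCtrl, 3.50, 3.33 and 3.84 with shTRIB3-1, and 4.98, 4.54 and 5.01 with shTRIB3-2. All 3 groups were apart, with shTRIB3-1 lowest. The log2 fold change was -1.11 ± 0.0653 for shTRIB3-1 (adjusted p = 1.44e-08), against -0.67 ± 0.0653 for shTRIB3-2 (adjusted p = 1.24e-06). The difference between the hairpins, 0.44 ± 0.0653, was called (adjusted p = 0.000199), so this gene passed the 2-fold limit with shTRIB3-1 only.

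**Figure D3:**
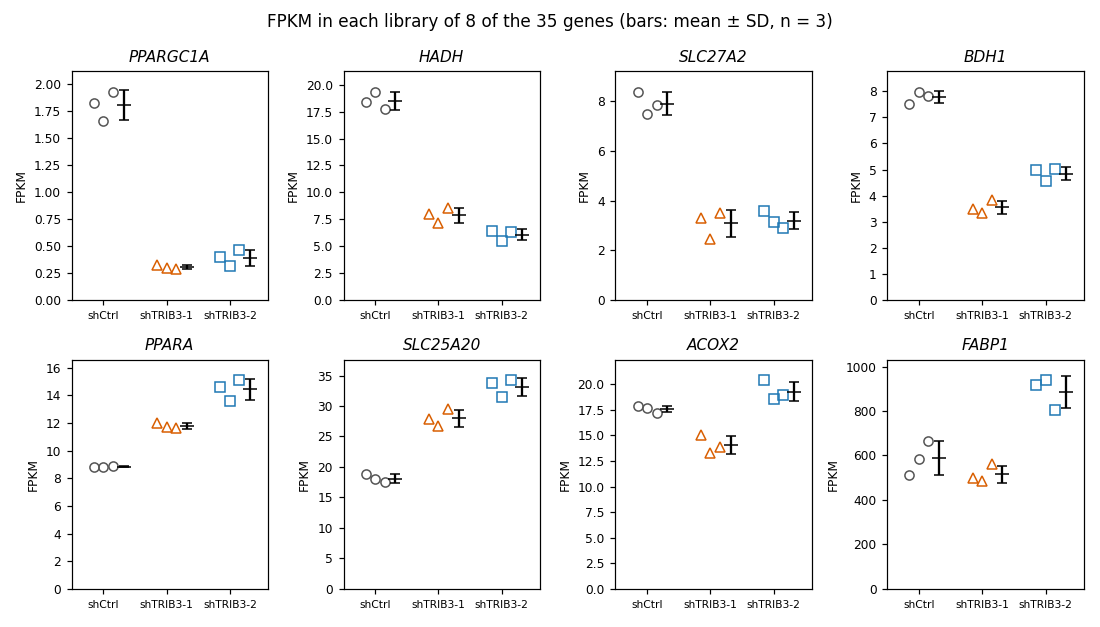
FPKM of 8 of the 35 genes in each library, with bars for the mean ± SD of the 3 libraries of a group and axes from 0. The top row holds the 4 genes past a 2-fold decrease with at least 1 hairpin, and in the bottom row PPARA and SLC25A20 are higher with both hairpins, while ACOX2 and FABP1 are highest with shTRIB3-2. Of the top row, PPARGC1A reached 1 FPKM in the shCtrl libraries only, so it had to be lower in the others.

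The other PPARA targets were of very unequal abundance. FABP1 measured 514, 585 and 667 FPKM in shCtrl, 500, 485 and 560 with shTRIB3-1, and 918, 938 and 806 with shTRIB3-2. The shTRIB3-2 libraries were above the other 6, which overlapped. Its log2 fold change was 0.60 ± 0.0881 for shTRIB3-2 (adjusted p = 5.27e-05). For shTRIB3-1 it was -0.19 ± 0.0881 (adjusted p = 0.0721, but 0.00692 without shCtrl replicate 1 and 0.0343 without shTRIB3-1 replicate 3). This decrease was also called after rescaling to TPM (0.0174) and with voom on the recovered fragments (0.00967). The hairpins differed by 0.78 ± 0.0881 (adjusted p = 2.27e-05), the largest difference between them among the 32 genes. ANGPTL4, a secreted inhibitor of lipoprotein lipase, was low, at 0.914 ± 0.221, 1.49 ± 0.158 and 1.62 ± 0.434 FPKM on 49 to 81 fragments per shCtrl library. Every knockdown library reached 1 FPKM, while of the shCtrl libraries only the highest did. ANGPTL4 thus passed the filter because of the groups where it was high. Its increases of 0.67 and 0.75 (SE 0.200) are given as a description with no p. Its lowest shTRIB3-2 library, at 1.12 FPKM, lay just under the highest control at 1.14.

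PDK4, the kinase that shuts off pyruvate dehydrogenase in fasting, and CD36, a fatty acid uptake receptor, were under the level for testing. PDK4 had 21, 23 and 20 fragments in the shCtrl libraries, 46, 44 and 44 with shTRIB3-1, and 19, 27 and 18 with shTRIB3-2, or 0.165 ± 0.0105, 0.3603 ± 0.0115 and 0.171 ± 0.0392 FPKM. The shTRIB3-1 libraries were above the other 6. CD36 had 63, 92 and 69 fragments in shCtrl, 45, 49 and 50 with shTRIB3-1, and 37, 33 and 43 with shTRIB3-2, and the 3 groups did not overlap in FPKM. When all genes above 0 in at least 1 library were fitted, PDK4 was called with shTRIB3-1 (0.80 ± 0.146, adjusted p = 0.00193), while CD36 was called for shTRIB3-2 (-0.66 ± 0.158, adjusted p = 0.00832). In that fit ACADL was called with shTRIB3-1 as well (0.55 ± 0.129, adjusted p = 0.00776), on the few fragments given above.

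Comparing the hairpins directly, 14 of the 32 genes were higher and 3 lower with shTRIB3-2 than with shTRIB3-1, beside 25.1% and 20.7% of all tested genes. The 2 groups did not overlap for 16 genes on the higher and 3 on the lower side, beside 30.1% and 24.4%. After rescaling each library to TPM the counts of calls were 16 and 1. The 3 lower genes, HADH, HADHA and ACAA2, all act in the later mitochondrial steps. ACAA2 (-0.11, adjusted p = 0.0312) was not called without shTRIB3-1 replicate 1 or 3 (0.0564 and 0.132) or shTRIB3-2 replicate 2 or 3 (0.101 and 0.0840), and HADHA (-0.10, adjusted p = 0.00909) was not called after TPM rescaling (0.0695) or quantile normalization (0.440). ECHS1 was not called (0.08, adjusted p = 0.0958) but was without shCtrl replicate 1 (0.0363). The median difference of the 32 genes was 0.13 and that of all tested genes 0.03. In the same comparison, 10 of 11 hepatocyte markers were higher with shTRIB3-2 and 0 lower, and their summed FPKM was 10377 to 10900 with shTRIB3-1 and 12994 to 13406 with shTRIB3-2. Whether the 2 patterns are linked was not tested. No gene of the 32 differed between the hairpins by more than 2-fold, beside 0.284% of all tested genes higher and 1.79% lower.

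Beyond the 35 genes, 74 further genes of the pathway were examined, of which 57 were tested. With shTRIB3-1, 18 were higher and 24 lower (32.9% and 41.5% of all tested genes), with shTRIB3-2, 23 and 23 (35.4% and 40.5%), and with both hairpins, 18 and 19 (28.1% and 34.3%). The shares called were close to those of all tested genes. Past 2-fold with both hairpins, 4 were higher and 1 lower, beside 4.32% and 4.74% of all tested genes. By list, 4 of 16 tested receptors and cofactors were higher and 7 lower with both hairpins, 8 and 10 of 31 oxidation enzymes, and 6 and 2 of 10 PPARA targets, all beside 28.1% and 34.3% of all tested genes. The 10 lower oxidation enzymes include ACACB, which is also among the 24, 23 and 19 lower genes above. ACACB reached 1 FPKM in the shCtrl libraries only (1.45 to 1.58 FPKM), so it had to be lower in the others. The 4 genes past 2-fold and higher belong to acyl-CoA activation (ACSL5), coenzyme A turnover (VNN1) and the lipid droplet (CIDEC and PLIN2).

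ACSL5, an acyl-CoA synthetase of mitochondria and the endoplasmic reticulum, rose from 64.8 ± 0.803 FPKM to 188 ± 2.90 and 258 ± 2.29, a log2 fold change of 1.54 and 1.99 (SE 0.0265). CIDEC, a lipid droplet protein, measured 11.6, 11.3 and 10.8 FPKM in shCtrl, 99.50, 99.52 and 97.2 with shTRIB3-1, and 117, 119 and 111 with shTRIB3-2. The 3 CIDEC groups were apart, and its log2 fold changes were 3.13 ± 0.0364 (adjusted p = 2.48e-14) and 3.36 ± 0.0364 (adjusted p = 1.07e-14). PLIN2, the coat protein of droplets in most cells, rose from 222 ± 6.39 to 556 ± 15.1 and 721 ± 17.9 FPKM.

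VNN1, a pantetheinase and PPARA target, measured 6.28, 6.12 and 5.31 FPKM in shCtrl, 18.2, 20.5 and 19.8 with shTRIB3-1, and 38.6, 39.97 and 39.8 with shTRIB3-2. The groups were apart, and VNN1 passed 2-fold between the hairpins as well, at 1.01 ± 0.0619 (adjusted p = 1.68e-07). KLB, the co-receptor of the fasting hormone FGF21, was the gene past 2-fold in the other direction, at 23.2 ± 0.558 FPKM in shCtrl, 10.1 ± 0.517 with shTRIB3-1 and 9.56 ± 0.358 with shTRIB3-2. The log2 fold changes were -1.19 and -1.27 (SE 0.0469).

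**Figure D4:**
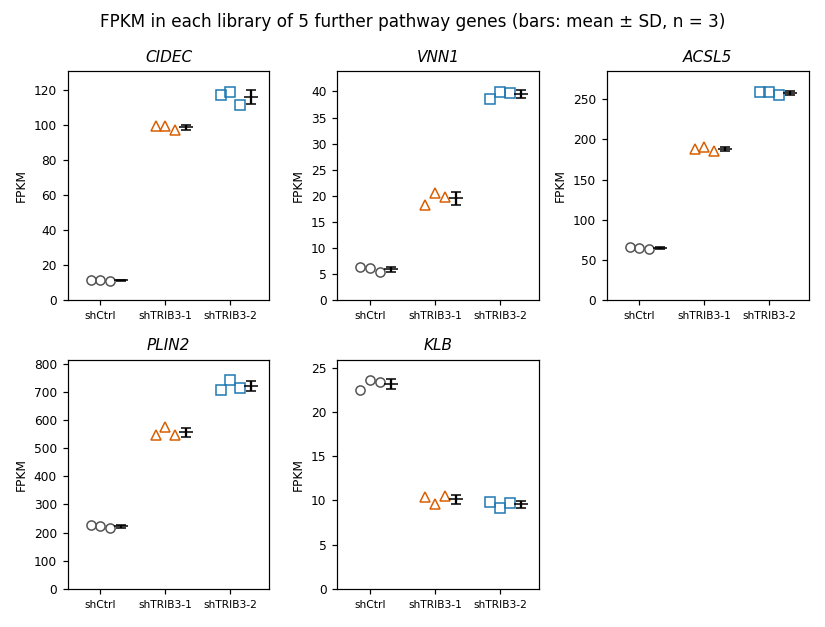
FPKM of the 5 further pathway genes named in the text as past a 2-fold change with both hairpins, in each library, with bars for the mean ± SD of 3 libraries and axes from 0. CIDEC, VNN1, ACSL5 and PLIN2 are higher in all 6 knockdown libraries than in the 3 controls, and KLB is lower in all 6.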

How the data were processed

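RNA-seq libraries of HepG2 cells (3 groups of 3) were used as deposited by the authors, in 1 table of FPKM with 1 line per gene symbol and 1 column per library, each matched to its sample by the label. Reads were aligned to GRCh38, by the study's methods with STAR. The labels name HTSeq and R 3.2.0. The annotation release and the strand setting of the counting are not given in the sources used here, and the methods name a strand-specific library kit and the labels another. FPKM corrects for length and total only, so a rise of abundant genes lowers the rest.

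Dividing the FPKM by what 1 fragment is worth gave a whole number of fragments, within 0.02, for 100% of 172769 values above 0. The length used for each gene was the smallest at which all its values came out whole, so this share is no independent check. Totals differed by 1.06-fold. Without molecular identifiers, counting error is the least error a library can have. Replicate libraries differed by 3.13 to 7.54 chi-square per degree of freedom, so none was a copy.

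Genes at 1 FPKM in at least 3 of 9 libraries (11265 of 24204) were fitted as log2(FPKM + 0.1) with limma 3.58.1 in R 4.3.3, with 3 group means and empirical Bayes moderation with a trend. P-values are two-sided and adjusted by the Benjamini-Hochberg method over all tested genes. A call past 2-fold also needed an absolute log2 fold change above 1. All 35 genes are named. Those past 2-fold with either hairpin are given library by library, and of each further list at most 4 genes past 2-fold with both hairpins in 1 direction are named. The 35 genes, the lists and the tests were chosen with earlier results of these data known, and the G-run motif was added after the repeat had been counted. Scripts were tested on simulated data. Alternatives covered the added constant, the filter, scaling, voom on the recovered fragments, the libraries in the fit, a replicate block and each library left out. The labels give no batch. An item of the further lists is not reported here.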

Additional observations from a re-analysis of the deposited data

Results flagged for a closer look

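ACOX2 differed between the hairpins, 0.45 ± 0.0499 higher on the log2 scale with shTRIB3-2 than with shTRIB3-1 (adjusted p = 1.98e-05, limma), and the 3 shTRIB3-2 libraries were all above the 3 shTRIB3-1 libraries. It was singled out because the 2 hairpins gave calls in opposite directions against the same controls, and the difference between the hairpins comes from those same libraries, so it describes the pattern and is no independent test of it. The increase with shTRIB3-2 was lost in 5 of 19 alternatives. The TRIB3 transcript was lower with shTRIB3-2 than with shTRIB3-1 by -0.71 ± 0.0301 in the same libraries. A part of the knockdown level or of either hairpin sequence in the ACOX2 difference was not tested.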

How the results depend on the processing

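The 32 tested genes gave 96 values over the 3 comparisons, and 1815 values under 19 alternatives. None reversed, 1762 kept their direction and side of the threshold, 33 were no longer called and 20 were newly called. These changes fell on 15 of the 96 values, in 12 genes, all with small log2 fold changes except the PPARGC1A difference between the hairpins. The counts of these genes stayed within 1.5 times of those reported, apart from the 3 lower with shTRIB3-2 than with shTRIB3-1, of which 1 was left after rescaling to TPM. Under the replicate block 94 values were the same, 1 was newly called (PEX11A with shTRIB3-1, adjusted p = 0.0482) and 1 was lost (ACADS with shTRIB3-2, 0.0648). Deviations of libraries with the same number correlated at -0.0742 to 0.0933, and those with different numbers at -0.0756 to 0.0479. Between the 2 knockdown groups the ranges were 0.0279 to 0.0933 and -0.0756 to 0.0137. Whether the numbers mark shared batches was not tested. TPM rescaling took the median log2 fold change of all tested genes with shTRIB3-1 from -0.06 to -0.11. Over all genes, counts past 2-fold moved most. With an added constant of 1 they were 376 higher and 404 lower with shTRIB3-1 (607 and 687 as reported), 411 higher with shTRIB3-2 (683), and 4 higher and 80 lower between the hairpins (32 and 202). With genes at 5 FPKM or more they were 338 and 407, then 382 and 419 (706 lower as reported), then 7 and 119. With all genes above 0 they were 1085 higher with shTRIB3-1, and 65 and 352 between the hairpins, where quantile normalization also gave 65 higher. Depth limits ACADL, PDK4, CD36 and ANGPTL4.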
